A study of Homo sapiens with 6 samples.

Results

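Interleukin 1 ligands and receptors are described here as 10 genes of the deposited count table: IL1A, IL1B, IL1RN, IL18, IL33, IL1R1, IL1R2, IL1RAP, IL1RL1 and IRAK2. They were chosen by gene name from the 58735 genes of the table, and each name matched 1 row. The RNA is from MDA-MB-231, a human cell line of triple-negative breast cancer, a tumour type that lacks the oestrogen and progesterone receptors and HER2 amplification. The 3 libraries labelled Control and the 3 labelled PM2.5 came from RNA taken after 48 h, and PM2.5 is fine airborne particulate matter. The study asked how such exposure bears on the malignant progression of this subtype. Particle dose and control vehicle were not stated in the sources used here. The submitters call the libraries of a group biological replicates without saying how separate the cultures were, so p-values measure only the spread between these libraries, which may be technical.

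Interleukin 1 alpha and beta are inflammatory cytokines that bind the same receptor, IL1R1, which then pairs with the accessory chain IL1RAP. The pair recruits the adaptor MYD88 and kinases of the IRAK family, and the signal reaches NF-kB, a transcription factor that switches on genes of chemokines, cytokines and matrix proteases. The antagonist IL1RN and the decoy receptor IL1R2 oppose the agonists. IL33 acts through IL1RL1, also with IL1RAP, and IL18 through a receptor of its own. Tumour cells can make these cytokines themselves, and interleukin 1 has been studied in breast cancer for its part in inflammation and in spread to bone.

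Total counts ran from 31846136 to 34691009 per library. Control replicate 3 stood apart: its counts differed from those of the other Control libraries by a chi-square of 33.9 and 37.2 per degree of freedom, against 5.85 between Control replicates 1 and 2 and 10.7 to 29.5 within the libraries labelled PM2.5. Mitochondrial transcripts took 3.22% ± 0.216 of counts in libraries labelled Control, against 2.73% ± 0.0467 in libraries labelled PM2.5 (SD, n = 3 each), and the part of this difference in the results was not tested. The stress enzyme HMOX1 and the xenobiotic enzyme CYP1A1, both known to be induced by particles and chosen after their values were seen, were lower where the label was PM2.5. HMOX1 was at 813 ± 58.3 in libraries labelled Control, against 51.3 ± 6.0 CPM (counts scaled to a common library size) in libraries labelled PM2.5, and CYP1A1 was at 6.29 ± 1.73 against 2.73 ± 0.650 CPM (SD, n = 3 each), so directions are given for the libraries as labelled. Of 8 markers of this line, all tested, 4 rose and 1 fell, beside 16.1% and 15.8% of all tested genes. SPARC, FN1, CAV1 and MSN rose, by 4.78-, 2.30-, 2.13- and 1.31-fold, and EGFR fell 1.87-fold. SPARC was low in libraries labelled Control, at 4.05 ± 1.05 against 19.3 ± 0.616 CPM. CD44, which changed least, was at 1525 ± 75.2 and 1545 ± 46.2 CPM. Of 8 luminal markers 3 were tested, 1 rose and 1 fell, beside 16.1% and 15.8% of all tested genes. The oestrogen receptor gene ESR1 had 0 counts in all 6 libraries, but not all luminal markers were low. KRT19 was at 837 to 1126 CPM in libraries labelled Control, against 1085 to 1279 CPM in libraries labelled PM2.5. KRT8 rose, from 356 to 472 CPM in the former to 522 to 622 CPM in the latter. GATA3 fell, from 5.12 to 6.97 CPM in libraries labelled Control to 3.59 to 4.41 CPM in libraries labelled PM2.5.

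Of the 10 members, 8 passed the filter on low counts. In the libraries labelled PM2.5, 5 of these 8 fell and 1 rose at an adjusted p under 0.05 (edgeR quasi-likelihood test, Benjamini-Hochberg over the 14975 tested genes), the call used throughout. Of all tested genes 15.8% fell and 16.1% rose, or 31.9% in either direction. IL1A, IL1B, IL33, the receptor IL1R1 and the IRAK family member IRAK2 fell, and the accessory chain IL1RAP rose. The median log2 fold change of the 8 tested members was -0.70, against -0.01 over all tested genes. With median-ratio or upper quartile scaling the split was 5 lower and 2 higher, since IL18 was then called as well. All 8 tested members had ranges that did not overlap between the groups, as did 44.3% of all tested genes. In bulk RNA, fewer cells that make a transcript and less of it per cell cannot be told apart, and the counts do not measure how much cytokine was cleaved or released.

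**Figure D1:**
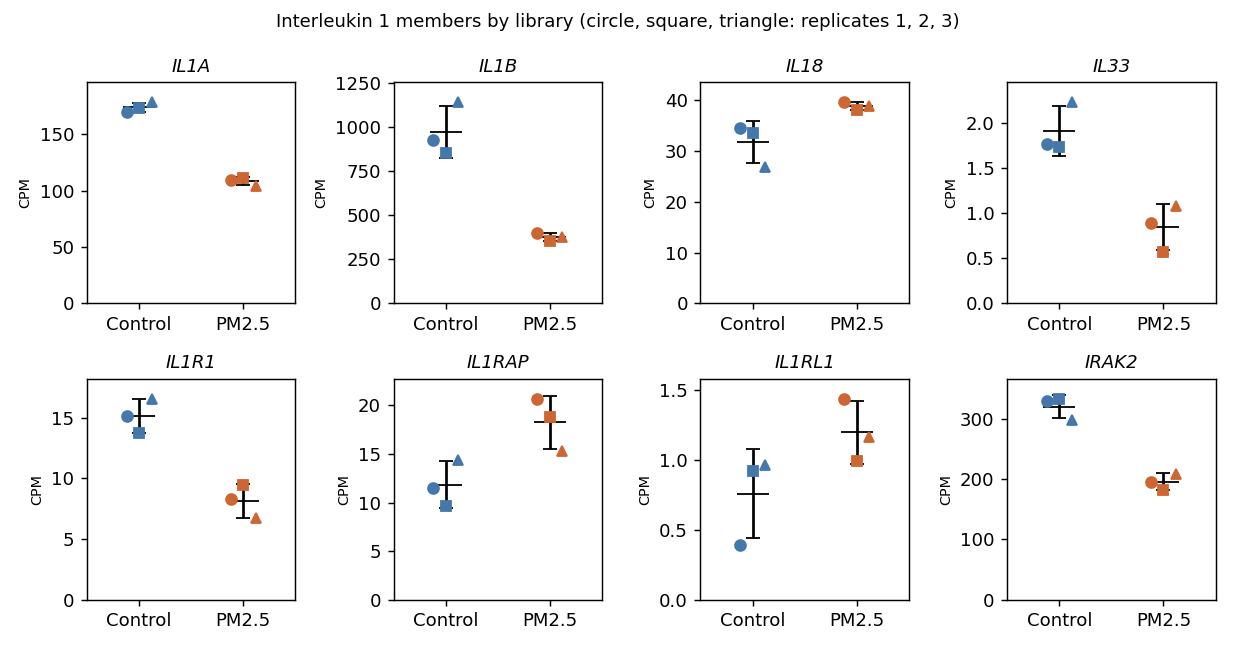
Level of the 8 tested members in each library, in CPM on linear axes that start at 0; each panel is 1 gene, points are libraries (circle, square and triangle for replicates 1, 2 and 3), and bars are the mean and SD of 3 libraries. IL1B sits between 856 and 1141 CPM in libraries labelled Control and between 352 and 398 CPM where the label is PM2.5, and IL1RAP is higher in the latter.

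Interleukin 1 beta (IL1B), the secreted agonist, was the most abundant member. It stood at 929, 856 and 1141 CPM in Control replicates 1 to 3 and at 398, 352 and 374 CPM in the libraries labelled PM2.5. Every library labelled Control was above every library labelled PM2.5, and Control replicate 3 was the highest. The fall was 2.60-fold (n = 3 each; log2 change -1.38, SE 0.11; edgeR adjusted p = 1.98e-07). Without Control replicate 3 the log2 change was -1.26. The gene lies on the minus strand of chromosome 2 (112829751 to 112836903, GRCh38, ENSG00000125538).

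Interleukin 1 alpha (IL1A), the agonist that is active as a precursor and often held in the cell, lies 45160 bases away, also on the minus strand of chromosome 2 (112773915 to 112784590, ENSG00000115008). It was at 170.0, 174 and 178 CPM in libraries labelled Control, against 109.9, 112 and 105 CPM in libraries labelled PM2.5. Both groups were tight and well apart. The fall was 1.60-fold (n = 3 each; log2 change -0.68, SE 0.09; edgeR adjusted p = 2.5e-05).

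IL1A and IL1B fell together, so the sequence before their starts is shown beside that of IRAK2, which fell, and IL1RAP, which rose. The sequences are RefSeq's for GRCh38.p14, read 5′ to 3′ on the strand of the gene. Of the 250 bases before the most upstream RefSeq start, the stretch before the first base of a GENCODE exon is printed. Capitals mark CG dinucleotides, the sites that DNA methylation can occupy.
IL1B, chr2:112836904-112837029, minus strand: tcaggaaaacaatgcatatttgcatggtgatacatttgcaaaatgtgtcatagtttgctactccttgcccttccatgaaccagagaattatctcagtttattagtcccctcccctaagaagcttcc
IL1A, chr2:112784591-112784743, minus strand: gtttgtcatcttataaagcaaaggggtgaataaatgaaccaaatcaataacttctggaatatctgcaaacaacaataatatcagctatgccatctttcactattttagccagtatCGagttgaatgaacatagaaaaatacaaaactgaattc
IRAK2, chr3:10164669-10164864, plus strand: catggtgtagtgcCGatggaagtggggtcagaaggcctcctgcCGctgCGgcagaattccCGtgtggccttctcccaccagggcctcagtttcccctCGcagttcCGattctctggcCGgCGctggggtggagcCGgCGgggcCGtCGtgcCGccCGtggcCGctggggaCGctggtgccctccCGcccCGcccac
IL1RAP, chr3:190513835-190514050, plus strand: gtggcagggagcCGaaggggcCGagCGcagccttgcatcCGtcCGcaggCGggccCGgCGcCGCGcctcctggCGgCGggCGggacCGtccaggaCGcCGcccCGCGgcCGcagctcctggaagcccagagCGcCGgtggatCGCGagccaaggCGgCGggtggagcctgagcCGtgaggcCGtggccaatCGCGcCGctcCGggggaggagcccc
The printed stretches hold 0 CG dinucleotides for IL1B, 1 for IL1A, 18 for IRAK2 and 31 for IL1RAP. Over the full 250 bases the numbers were 1, 7, 24 and 33, against a median of 11 over 35114 windows of that length. The 3 printed genes that fell thus differ in this feature, and IRAK2 is nearer to IL1RAP than to the ligands. IL33 and IL1R1 also fell and are not printed. Their windows of 250 bases held 0 and 3 CG dinucleotides for IL33 and 6, 3, 6 and 31 for IL1R1.

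Windows of 250 bases were found for 9 of the 10 members, 18 windows in all with alternative starts, and none for IL18. They were searched on both strands for 5 motifs: the NF-kB motif by its usual consensus, the AP-1 motif TGANTCA, the antioxidant response element TGACNNNGC, the core GCGTG bound by the aryl hydrocarbon receptor, and TATAAA. IL1A held matches to 3 of these within 76 bases of its upstream start, with no overlap between them. TGACTCA, an AP-1 match, begins 12 bases before the start, on chromosome 2 at 112784499 to 112784505. TGACGACGC, a match to the antioxidant response element, begins 76 bases before it at 112784561 to 112784569, and the core GCGTG stands on the other strand 50 bases before it. These 3 matches lie between the RefSeq start and the start of the GENCODE exon, outside the printed stretch. The AP-1 motif was present in 6.57% of the 35114 windows, the antioxidant element in 10.9% and the core GCGTG in 32.2%. Of the 18 windows of members, some of which overlap, 4 held the AP-1 motif, 3 the antioxidant element and 3 the core GCGTG. The AP-1 matches were in IL1A, IL1RL1 and IL1RN, and those of the antioxidant element and of GCGTG in IL1A and IL1R1. The window of IL1B held no match to any of the 5 motifs. The NF-kB motif was found in 1 of the 18 windows, that of IL1R2, and in 9.96% of all windows, while TATAAA stood in 5 of the 18 and in 10.7% of all. A match is a run of letters and not a measured site, and no match says only that these letters are not in this window.

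The other ligands were much lower and did not all go the same way. IL18, a cytokine known for inducing interferon gamma, was at 34.5, 33.6 and 26.95 CPM in libraries labelled Control, against 39.6, 38.0 and 38.8 CPM in libraries labelled PM2.5. The groups did not overlap, but Control replicate 3 lay well below replicates 1 and 2. With a log2 change of 0.29 ± 0.11 (SE) IL18 did not pass the test (edgeR adjusted p = 0.0569). It passed in 4 of 13 alternative fits, with adjusted p from 0.0385 to 0.163 over all 13. IL18 lies on the minus strand of chromosome 11 (112143251 to 112164117, ENSG00000150782).

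IL33, an alarmin stored in the nucleus, was low, with 54, 56 and 76 counts in libraries labelled Control, against 31, 19 and 37 in libraries labelled PM2.5. In CPM this was 1.91 ± 0.276 and 0.848 ± 0.256 (SD, n = 3 each), with no overlap. IL33 fell 2.24-fold (log2 change -1.16, SE 0.33; edgeR adjusted p = 0.0138). Without PM2.5 replicate 2, the lowest library, the log2 change was -0.95 and the call was lost (adjusted p = 0.0615 in the edgeR test). IL33 lies on the plus strand of chromosome 9 (6215786 to 6257983, ENSG00000137033).

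The antagonist IL1RN and the decoy receptor IL1R2 were almost absent. The receptor antagonist IL1RN, on the plus strand of chromosome 2 (113107214 to 113134016, ENSG00000136689), had 4, 6 and 4 counts in libraries labelled Control and 0 counts in each of those labelled PM2.5. A count of 0 allows up to 3 counts, or 0.0864 to 0.0905 CPM in a single library labelled PM2.5, which covers counting error alone, as reads that carry no molecular identifier can be copies of 1 molecule. Pooled over the libraries labelled Control, IL1RN had 14 counts. In CPM this was 4.91-fold the 3 counts that 0 allows over those labelled PM2.5. The counting error of the 14 counts is left out, so this is no lower limit. IL1RN was below the filter and not among the tested genes, and with no filter edgeR's quasi-likelihood test gave an adjusted p of 0.0707. The decoy receptor IL1R2, at 101991844 to 102028544 on the plus strand of chromosome 2 (ENSG00000115590), had 0 counts in libraries labelled Control, against 0, 2 and 1 in libraries labelled PM2.5, at or under the detection limit in both groups.

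The signalling receptor and its partner moved in opposite directions. IL1R1, which binds both agonists, lies on the plus strand of chromosome 2 (102064544 to 102179874, ENSG00000115594). It was at 15.2, 13.7 and 16.6 CPM in libraries labelled Control, against 8.30, 9.47 and 6.71 CPM in libraries labelled PM2.5. The groups were clearly apart, with a gap wider than either SD. The fall was 1.86-fold (n = 3 each; log2 change -0.89, SE 0.15; edgeR adjusted p = 0.000397).

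IL1RAP, the chain that IL1R1 and IL1RL1 both need, lies on the plus strand of chromosome 3 (190514051 to 190659750, ENSG00000196083). It was at 11.5, 9.60 and 14.4 CPM in libraries labelled Control, against 20.7, 18.8 and 15.3 CPM in libraries labelled PM2.5. Control replicate 3 and PM2.5 replicate 3 were nearly level, and the other libraries were well apart. IL1RAP rose 1.54-fold (n = 3 each; log2 change 0.63, SE 0.16; edgeR adjusted p = 0.00759). Exons of another gene cover 4.63% of its exonic bases.

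IL1RL1, the receptor for IL33, lies on the plus strand of chromosome 2 (102311502 to 102352037, ENSG00000115602). It had 12, 30 and 33 counts in libraries labelled Control, against 50, 33 and 40 in libraries labelled PM2.5. In CPM this was 0.761 ± 0.320 and 1.20 ± 0.224 (SD, n = 3 each), with Control replicate 1 far below the rest. The groups barely separated, since Control replicate 3 and PM2.5 replicate 2 both had 33 counts. The gene was not called (log2 change 0.65, SE 0.40; edgeR adjusted p = 0.240). Without Control replicate 1 the log2 change was 0.34.

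IRAK2, a kinase-like protein that carries the signal from the receptor complex to TRAF6, lies on the plus strand of chromosome 3 (10164865 to 10243743, ENSG00000134070). It was at 329.9, 334 and 298 CPM in libraries labelled Control, against 196, 181 and 209 CPM in libraries labelled PM2.5. All libraries labelled PM2.5 lay far below all those labelled Control. IRAK2 fell 1.64-fold (n = 3 each; log2 change -0.71, SE 0.10; edgeR adjusted p = 3.75e-05).

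Per gene length the members covered a wide range. As CPM per kb, IL1B was at 315 ± 47.8 in libraries labelled Control, against 121 ± 7.37 in libraries labelled PM2.5 (SD, n = 3 each), above 99.2% and 97.7% of tested genes. IRAK2 followed at 92.0 ± 5.60 and 56.2 ± 4.03, and IL1A at 82.0 ± 1.99 and 51.2 ± 1.73. IL18 stood at 12.1 ± 1.58 and 14.8 ± 0.299. The receptor chains were far lower: IL1R1 was at 2.14 ± 0.200 and 1.15 ± 0.196, and IL1RAP at 1.02 ± 0.209 and 1.58 ± 0.236. IL33 and IL1RL1 came last among the tested members. Neighbours in this order did not overlap in libraries labelled Control. In those labelled PM2.5 the ranges overlapped for IRAK2 and IL1A, for IL1RAP and IL1R1, and for IL33 and IL1RL1. Within these libraries IL1RAP was above IL1R1 in each of the 3, at 1.79 against 1.17, 1.63 against 1.34 and 1.32 against 0.947, and IL33 was above IL1RL1 in each of the 3. IRAK2 was above IL1A in replicates 1 and 3 and below it in replicate 2. The mean of IL1RAP was below that of IL1R1 in libraries labelled Control and above it in those labelled PM2.5.

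**Figure D2:**
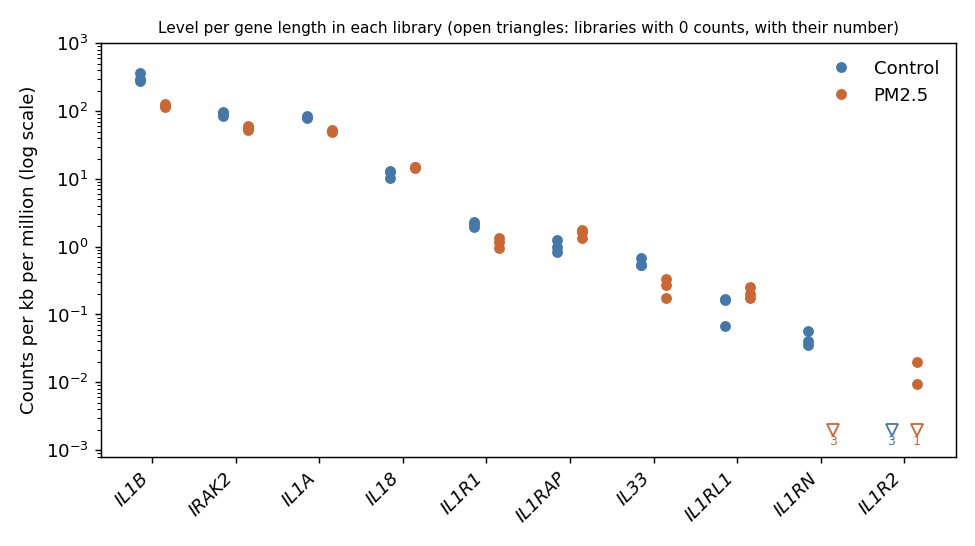
Level of all 10 members as CPM per kb of gene length, on a log axis, with 1 point for each library and members ordered by their mean in libraries labelled Control; open triangles at the bottom give the number of libraries with 0 counts. IL1B, IRAK2 and IL1A lie at 49.3 or above in all 6 libraries, IL1R1 and IL1RAP between 0.830 and 2.34, and IL1RN and IL1R2 at the bottom.

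Ratios of 2 genes within a library do not depend on how libraries are scaled. The log2 ratio of IL1B to IL1A counts was 2.45, 2.30 and 2.68 in libraries labelled Control, against 1.86, 1.66 and 1.84 in libraries labelled PM2.5. The ratio fell by 0.69 on the log2 scale, so IL1B went down by more than IL1A in these libraries. Per gene length, IL1B exceeded IL1A by 3.38 to 4.39 times in libraries labelled Control, against 2.16 to 2.48 times in libraries labelled PM2.5. The log2 ratio of IL1R1 to IL1RAP counts was 0.40, 0.52 and 0.20 in libraries labelled Control, against -1.32, -0.99 and -1.19 in libraries labelled PM2.5, a mean difference of -1.54. That of IL18 to IL1B was -4.94 ± 0.40 and -3.27 ± 0.06 (SD), a difference of 1.67. In each of these 3 ratios the groups did not overlap. The exact two-sided permutation p was 0.10 for each, also after Benjamini-Hochberg adjustment over the 3 ratios, which is the smallest p that 3 libraries against 3 can give. Ratios with IL1RN or IL1R2 were left out because those genes were below the filter.

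**Figure D3:**
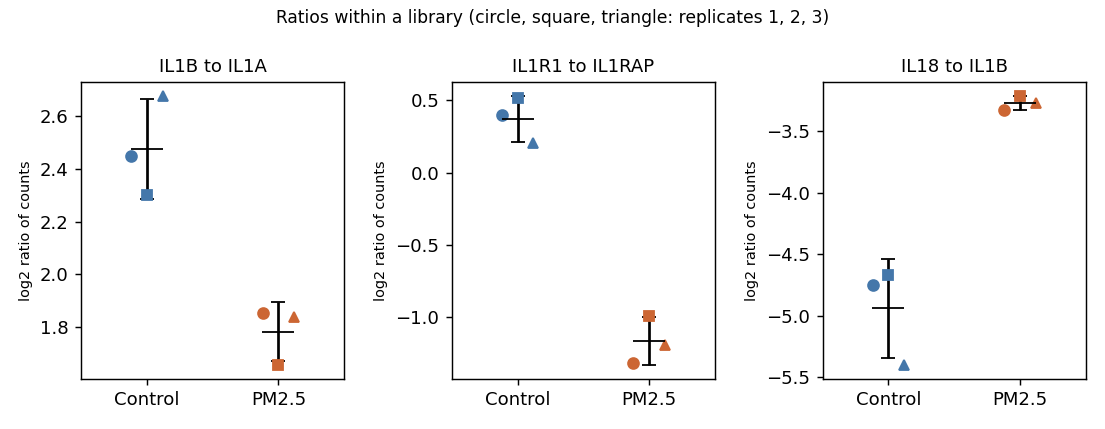
Log2 ratio of counts within each library for 3 pairs of members, with points for libraries (circle, square and triangle for replicates 1, 2 and 3) and bars for the mean and SD of 3 libraries; the axes do not start at 0. IL1B to IL1A and IL1R1 to IL1RAP are lower, and IL18 to IL1B higher, in every library labelled PM2.5.

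Of the 10 members, 6 lie in 2 gene clusters on chromosome 2, a ligand cluster and a receptor cluster. Between IL1B and IL1RN, which are 270310 bases apart, lie IL37, IL36G, IL36A, IL36B, IL36RN and IL1F10, relatives with at most 23 counts each over all 6 libraries. On the other side of IL1A the nearest tested gene within 100 kb is CKAP2L, a mitotic spindle gene. CKAP2L was at 3.81 ± 1.12 CPM in libraries labelled Control, against 20.2 ± 5.35 CPM in libraries labelled PM2.5 (SD, n = 3 each), and it rose while IL1A and IL1B fell (log2 change 2.40, SE 0.22; edgeR adjusted p = 6.38e-07). In the receptor cluster IL1R1 fell, and IL18R1, the receptor for IL18, overlaps IL1RL1 on the same strand, with 1.65% of the exonic bases of IL1RL1 covered. IL18R1, with 141 counts in all, was not called (log2 change 1.20, SE 0.47). IL1RL2 and IL18RAP had 8 and 4 counts. CKAP2L and the genes between members were chosen by their position.

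Other relatives of the family were described from a list of 13 receptors, ligands and binding proteins. Of these 4 were tested, 2 rose and 0 fell, beside 16.1% and 15.8% of all tested genes. At an unadjusted p under 0.05 as well as with DESeq2 the number that fell was also 0. With 4 tested genes these counts are no result about the list. IL18BP, a secreted protein that neutralises IL18, was at 5.95, 6.02 and 6.06 CPM in libraries labelled Control, against 9.85, 9.47 and 10.1 CPM in libraries labelled PM2.5. SIGIRR, an inhibitory receptor of the family, was at 17.5, 14.6 and 16.5 CPM in libraries labelled Control, against 24.1, 21.8 and 29.4 CPM in libraries labelled PM2.5. Both inhibitors were higher in each library labelled PM2.5, with log2 changes of 0.71 ± 0.15 and 0.63 ± 0.13 (SE, n = 3 each, adjusted p = 0.00192 and 0.00199 by edgeR's quasi-likelihood test). Of the rest of the list, 3 genes had 0 counts in all 6 libraries.

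Genes that mature and release the ligands moved both ways. Of a list of 20 genes of inflammasomes, caspases, calpains and gasdermins 16 were tested, of which 5 fell and 3 rose (median log2 change -0.20), beside 15.8% and 16.1% of all tested genes, so the number that rose is near the background. Caspase 1 (CASP1), the protease that cleaves the precursors of IL1B and IL18, was at 25.7, 26.3 and 27.3 CPM in libraries labelled Control, against 15.8, 18.5 and 15.6 CPM in libraries labelled PM2.5. CASP1 fell 1.59-fold, without overlap (n = 3 each; log2 change -0.67, SE 0.12; edgeR adjusted p = 0.000444). The DNA sensor AIM2 fell 1.85-fold from 11.7 ± 1.41 to 6.34 ± 0.574 CPM, and the pore-forming GSDME 1.60-fold from 52.6 ± 2.15 to 32.8 ± 2.08 CPM. The genes of the list that rose were the inflammasome sensor NLRP1, by 1.35-fold, its relative CARD8, by 1.95-fold, and the large subunit of calpain 2 (CAPN2), by 1.32-fold from 425 ± 5.87 to 562 ± 9.60 CPM. The sensor NLRP3, with 26.3 ± 4.77 and 22.8 ± 2.44 CPM, and the pore-forming GSDMD, with 47.5 ± 2.72 and 49.1 ± 3.80 CPM (SD), were not called. NLRP3 and GSDMD were chosen after their values were seen.

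Of 24 signalling genes below the receptor complex, all tested, 6 fell and 2 rose (median log2 change -0.06), beside 15.8% and 16.1% of all tested genes. The 8 called of 24 in either direction are close to the 31.9% called over all tested genes, so this total is no result about the list. The split by direction was not tested. MYD88, the adaptor of the receptor complex, was at 70.2, 66.1 and 72.5 CPM in libraries labelled Control, against 44.7, 40.8 and 43.6 CPM in libraries labelled PM2.5. It fell 1.62-fold, without overlap (n = 3 each; log2 change -0.69, SE 0.09; edgeR adjusted p = 4.46e-05). The scaffold SQSTM1, also known as an autophagy receptor, fell 2.02-fold from 2438 ± 131 to 1209 ± 81.6 CPM. The ubiquitin ligase PELI3 fell 1.67-fold and the kinase IRAK1 1.29-fold, from 304 ± 11.6 to 236 ± 18.6 CPM. TOLLIP, an inhibitor of IRAK1, fell 1.26-fold, and TAB1, which activates the kinase MAP3K7, 1.41-fold. Without PM2.5 replicate 1 the calls of TAB1 and TOLLIP were lost (adjusted p = 0.056 and 0.0628 by edgeR's quasi-likelihood test), and 5 genes of the list were called in all. UBE2V1 and the kinase IKBKB rose, by 0.62 ± 0.20 and 0.32 ± 0.11 on the log2 scale, and were chosen after their values were seen. The number that rose was 0 without Control replicate 1 or PM2.5 replicate 2, 1 without Control replicate 2, PM2.5 replicate 1 or PM2.5 replicate 3, and 4 without Control replicate 3.

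Genes known to be induced by interleukin 1 moved in both directions. Of a list of 35, 30 were tested, of which 14 fell and 7 rose (median log2 change -0.24), beside 15.8% and 16.1% of all tested genes. The prostaglandin synthase PTGES was at 370.2, 340.1 and 307 CPM in libraries labelled Control, against 121, 114 and 135 CPM in libraries labelled PM2.5, and fell 2.75-fold (edgeR adjusted p = 3.03e-08). The matrix proteases MMP3 and MMP1 fell by 3.41 ± 0.11 and 1.82 ± 0.12 on the log2 scale. Among the rises, the acute phase gene SAA1 went from 35.8 ± 0.726 to 58.8 ± 4.29 CPM, and the chemokine CXCL8 and the cytokine IL11 rose by 0.83 ± 0.10 and 0.96 ± 0.11 on the log2 scale. IL6, a classic interleukin 1 target, had overlapping groups at 124 to 163 and 105 to 143 CPM and did not pass the test. The NF-kB subunits NFKB1 and RELA did not pass it either, with log2 changes of -0.27 ± 0.11 and 0.20 ± 0.10 (SE). These genes answer to many other signals as well.

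**Figure D4:**
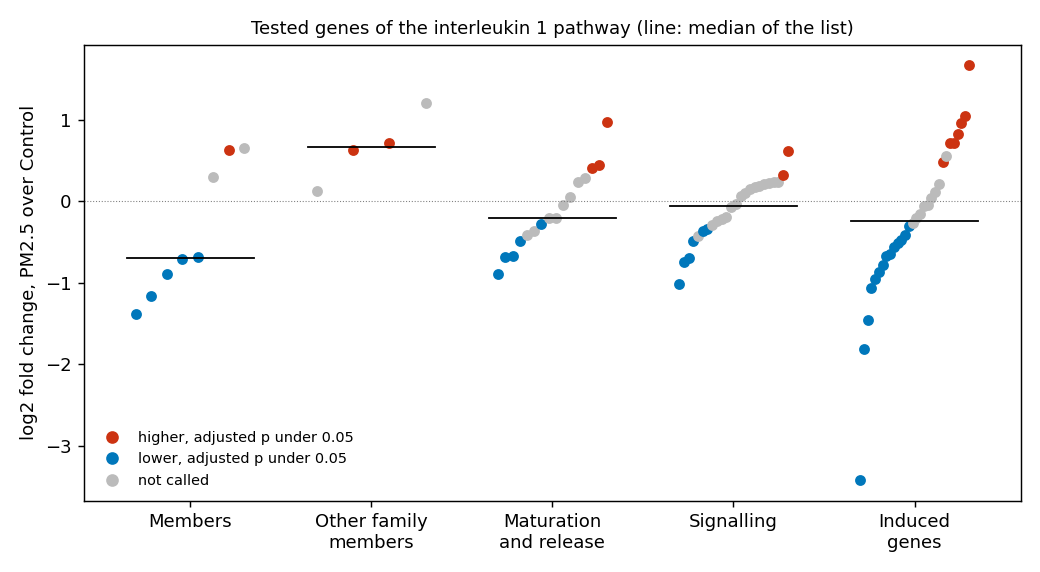
Log2 fold change, PM2.5 over Control, of the tested members and of the tested genes of 4 lists of the pathway, with 1 point for each gene, sorted within its list, and a line at the median of the list. Points are coloured by the call at an adjusted p under 0.05: 5 of 8 members are lower, and the lists of relatives, maturation, signalling and induced genes hold 0, 5, 6 and 14 lower and 2, 3, 2 and 7 higher genes.

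The genes most like IL1B and IL1A over the 6 libraries were taken from 3599 protein-coding genes with a mean of at least 50 CPM. IL27RA, ACSL5 and AMIGO2 were nearest to IL1B, with Pearson correlations of log2 CPM of 0.999, 0.999 and 0.998, and of 0.98, 0.97 and 0.98 after the mean of each group was removed. For IL1A the nearest were GCLM, CLMP and FKBP15, with correlations of 0.999, 0.999 and 0.996, and of 0.98, 0.94 and 0.60 after removal of the group means. The 6 points share the difference between the groups, and 166 genes had a correlation over 0.95 with IL1B and 164 with IL1A. The named genes were picked by the correlation over the same 6 libraries. Their values after removal of the group means are therefore no separate support. GCLM, which encodes part of the first enzyme of glutathione synthesis, fell from 119.6 to 59.1 CPM, and ACSL5, a fatty acid ligase, from 137 to 62.3 CPM.

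Interleukin 1 beta is known as a product of macrophages, so markers of leukocytes were measured beside it. The leukocyte antigen PTPRC and CD3E, MPO and TYROBP had 0 counts in all 6 libraries. The 12 markers together summed to 3.07 to 3.98 CPM in libraries labelled Control, against 5.46 to 7.35 CPM in libraries labelled PM2.5. IL1B alone was at 856 to 1141 and 352 to 398 CPM. Of 4 tested markers LYZ, CD14 and ITGAM rose, where 16.1% of all tested genes did, and reached at most 3.08 CPM on average. LYZ had 14, 13 and 8 counts and ITGAM 4, 8 and 12 in libraries labelled Control. Both thus passed the filter on low counts only through the libraries labelled PM2.5, where they were high. The number that rose is therefore no result about these markers. Of 6 endothelial markers the junction gene CDH5 had 4 counts in all, while PECAM1, which rose, was at 43.8 ± 5.94 and 55.2 ± 2.26 CPM (SD, n = 3 each). Markers of the same lists also went the other way without a call. CD163 had 4, 8 and 10 counts where the label was Control and 0 in each library labelled PM2.5, CSF1R was at 0.908 ± 0.328 and 0.604 ± 0.251 CPM, and the endothelial KDR at 1.40 ± 0.430 and 0.655 ± 0.259 CPM with no overlap. The part of these markers in the fall of IL1B was not tested.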

How the data were processed

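Raw read counts of 6 RNA-seq libraries were deposited by the authors as 1 table that also holds gene symbols, coordinates and lengths, per the file headers. The submitters' processing notes name GRCh38; aligner, counter and strand setting were not stated in the sources used here. All 58735 genes matched GENCODE release 29 by identifier and coordinates, which was used for exon overlaps. Per the labels' protocols, RNA was extracted with TRIzol and libraries were made with an NEBNext Ultra RNA kit. Gene length in bases is another column of the table as the authors deposited it, used for levels per length.

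Under R 4.3.3, edgeR 4.0.16 was run on the counts, with filterByExpr at its minimum count of 10 and minimum total of 15, TMM scaling, and a two-sided quasi-likelihood test with group as the only term and Benjamini-Hochberg adjustment over 14975 genes. The SE of a log2 change is its absolute value divided by the square root of F. CPM uses TMM factors. The fit was tested on simulated data. Alternatives were median-ratio and upper quartile scaling, DESeq2 1.42.0, limma-voom (limma 3.58.1), other filters, a replicate block and leaving out each library. The exact permutation test on within-library ratios used counts plus 0.5.

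The members and lists were chosen with earlier results of these data known. Named are the 10 members, up to 6 called genes of each list with the smallest p, 3 genes most like IL1B and IL1A, and NFKB1, RELA, MYD88, IL6 and CXCL8. Lists of leukocyte, endothelial and luminal markers and of markers of the line were used as checks, and 1 leukocyte marker is not reported here. SOD2 has 2 rows in the table, and the one listed first was used.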

Additional observations from a re-analysis of the deposited data

How the results depend on the processing

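Over 13 alternative fits, IL1A, IL1B, IL1R1, IL1RAP and IRAK2 kept their direction and call in all 13, with log2 changes from -1.47 to -1.26 for IL1B, -0.70 to -0.65 for IL1A, -1.01 to -0.77 for IL1R1, 0.49 to 0.79 for IL1RAP and -0.77 to -0.66 for IRAK2. IL33 was below the stricter filter and was called in 11 of its 12 fits, and IL1RL1 in 0 of 12 (adjusted p from 0.163 to 0.603). The number of members that rose was 2 instead of 1 with median-ratio scaling, upper quartile scaling, DESeq2 and the stricter filter of at least 2 CPM, where IL18 was called (adjusted p = 0.0491, 0.0385, 0.0439 and 0.0392); the cause was not tested. Of 24 signalling genes 1 rose with no filter. Leaving out each library in turn, 0 to 4 signalling genes rose and 5 to 12 were called, 4 to 5 members fell, and 1448 to 2680 of all genes fell, the lowest without PM2.5 replicate 1, each with fewer libraries. No tested gene among those named by the rule given above changed sign in these fits. The numbers in the titles gave no sign of pairing: same-numbered libraries had correlations of their deviations from the group means of 0.01, -0.05 and -0.16. Libraries with different numbers had correlations from -0.18 to 0.18. So few libraries cannot show whether the cultures were run in pairs. With the number as a replicate block 3777 genes were called instead of 4775, and 6 members as before. The ratios stayed within 1 SD with 5 added to the counts. Depth limits IL1RN and IL1R2, with at most 6 counts in a library.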
